A study of Rattus norvegicus with 5 samples.

Results

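The surfactant protein genes of the lung, Sftpa1, Sftpb, Sftpc and Sftpd, were followed over 5 arrays of rat lung RNA through all probe sets (groups of short probes for 1 transcript) that the platform annotation assigns to them. The annotation gave 6 such probe sets for these 4 genes, out of 8740 probe sets and 4736 named genes. Sftpa1 and Sftpb had 2 probe sets each, and Sftpc and Sftpd had 1 each. No measured value entered the choice.

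Whole-lung total RNA was pooled in equal amounts and hybridised to 1 array per group. The exposed rats had received EHC-93, a preparation of urban particulate matter, by intratracheal instillation, and their RNA was taken at 2, 4 and 6 h (early array), 15, 18 and 21 h (intermediate array) or 24, 32 and 40 h (late array). For the sham array, rats given intratracheal saline were sampled at 2, 15 and 24 h, and the untreated array held RNA of 3 rats with no instillation. Strain, sex, age, dose and the number of rats in the instilled pools were not stated in the sources used here. The times of the sham pool do not match those of any single exposed pool, and each pool averages over its times. With 1 array per group, a difference between 2 arrays has no replicate check.

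Pulmonary surfactant is the lipid and protein film that lowers surface tension at the surface of the alveoli. Alveolar type 2 cells make it, store it in lamellar bodies and secrete it. The small hydrophobic proteins SP-B (Sftpb) and SP-C (Sftpc) organise the lipid film and help it spread, and SP-C is made by type 2 cells alone. SP-A (Sftpa1) and SP-D (Sftpd) are collectins, secreted lectins with a collagen-like tail that bind microbes, particles and lipids, and club cells of the airways make them too. The transcription factor NKX2-1 drives the surfactant protein genes in type 2 cells, together with FOXA and C/EBP factors.

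Stretches just before the annotated start of 2 members are shown because NKX2-1 and its partners act through such sequence and their own transcripts are described further on. RefSeq promoter entries (rat assembly GRCr8) matched 2 of the 4 members, Sftpa1 at chr16:17042014-17042263 and Sftpb at chr4:105917338-105917494, both on the plus strand. Capitals mark exact matches found on either strand to any of 3 short motifs, an NKX2-1-type core, a FOXA-type core and a TATA-type element. No motif overlaps another in these stretches.
Sftpa1: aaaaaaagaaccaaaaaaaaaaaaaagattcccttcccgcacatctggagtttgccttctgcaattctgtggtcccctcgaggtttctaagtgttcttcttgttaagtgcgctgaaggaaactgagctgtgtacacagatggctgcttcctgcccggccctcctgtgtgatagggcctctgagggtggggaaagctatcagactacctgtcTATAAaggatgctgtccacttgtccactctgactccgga
Sftpb: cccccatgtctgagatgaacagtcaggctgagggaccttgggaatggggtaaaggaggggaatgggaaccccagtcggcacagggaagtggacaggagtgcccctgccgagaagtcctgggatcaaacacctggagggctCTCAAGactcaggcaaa
The capitals in the Sftpb stretch are an NKX2-1-type core, searched as CTCAAG. Over the whole 250 bases before the transcript start that RefSeq lists, Sftpb also holds a second NKX2-1-type core, a FOXA-type core on the minus strand and a TATA-type element, searched as TATAA, which is also what the capitals in the Sftpa1 stretch mark. The further matches in Sftpb lie in whole or in part past the gene's first annotated base and are not printed. Of 33469 rat promoters of that length, 13.3% hold the NKX2-1-type core on either strand, 24% the TATA-type element and 4.16% the FOXA-type core, searched as TGTTTGC. In the same assembly Sftpa1 and Sftpd lie on chromosome 16 with 3 annotated genes between them, the collectin gene Mbl1 being next to Sftpd.

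Intensities below are linear values scaled so that all arrays share 1 median over all probe sets. The factors ran from 0.931 on the sham to 1.07 on the intermediate array, and the latter array moved by 0.20 on the log2 scale against sham through this step. All 6 probe sets were far above the floor of 172.53 set for low values, on every array. They were among the brightest signals on the arrays. Sftpc read between 94.1% and 100% of the highest deposited intensity of its array, and whether signals this bright still follow RNA in proportion was not tested. In bulk lung RNA, fewer type 2 cells and less RNA per cell cannot be told apart.

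The 4 surfactant protein genes stayed within 2-fold on every array, with no probe set of any of them past 2-fold from both control arrays at any phase. On the intermediate and late arrays SP-A (by its probe set M33201_at), SP-C and SP-D read from 1.22-fold to 1.30-fold of sham with median scaling. On the same arrays and with the same scaling, SP-B by rc_AI170380_at read between 0.985-fold and 1.05-fold. Other bright probe sets of the arrays were higher there by a like amount. The untreated array was lower than the sham array for all 6 probe sets.

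**Figure D1:**
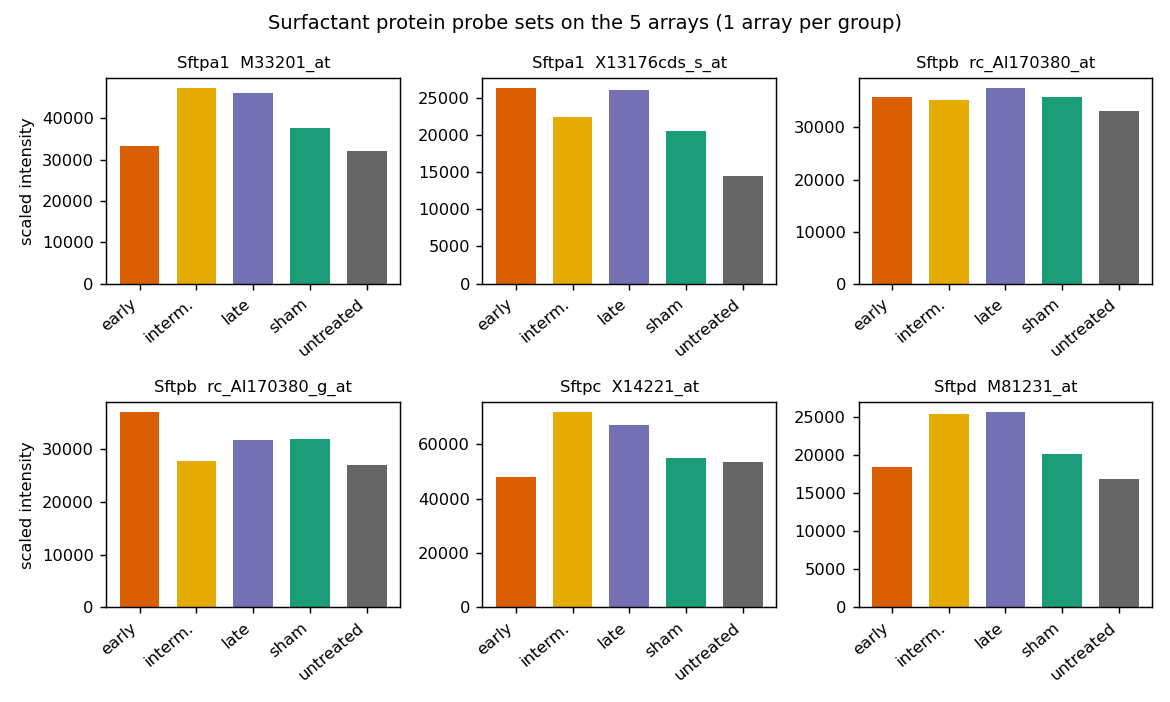
Scaled linear intensity of the 6 surfactant protein probe sets on the 5 arrays, 1 bar per array and hence no error bar. M33201_at of Sftpa1, Sftpc and Sftpd are highest on the intermediate and late arrays, X13176cds_s_at and rc_AI170380_g_at are highest on the early array, and rc_AI170380_at varies by 1.14-fold in all.

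Sftpc, the transcript specific to type 2 cells, read 48085, 71970, 67231, 55179 and 53586 in the early, intermediate, late, sham and untreated pools, as scaled intensity of its probe set X14221_at. The early array was the lowest of all 5 and the later arrays were above both controls, whereas with quantile normalization the early value was 0.04 above sham and 0.09 above untreated on the log2 scale and intermediate was at -0.03 from sham. On the log2 scale the early value lay -0.20 from sham and -0.16 from untreated, the intermediate value 0.38 and 0.43, and the late value 0.29 and 0.33. Between phases, intermediate was 0.58 and late 0.48 above early on that scale.

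Sftpb, whose product is required for the lipid film to form, varied least of the 4 by rc_AI170380_at with median scaling. Its scaled intensities were 35754, 35343, 37534, 35879 and 33067 in the same order of pools. With median scaling the exposed values overlapped the controls, since early and intermediate lay between sham and untreated. Late, 1.05-fold of sham, was below sham with each of the 3 other scalings. On the deposited scale intermediate was below both controls, at -0.219 from sham and -0.042 from untreated on the log2 scale. With quantile normalization it was also below both (-0.28 and -0.237), and early was above both (0.13 and 0.173). With median scaling the highest array was 1.14-fold over the lowest, a smaller range than in all but 5.83% of the tested probe sets. With quantile normalization Sftpb did not vary least. Its intermediate value then lay -0.41 from early on the log2 scale, against -0.07 for Sftpc. The companion probe set rc_AI170380_g_at, made from the same expressed sequence tag, read 37037, 27673, 31776, 31824 and 26911. It was high on the early array alone, 1.16-fold over sham and 1.38-fold over untreated, and lowest on the untreated array with median scaling. With the 3 other scalings the intermediate array was lowest instead. It then lay -0.098 (as deposited), -0.017 (75th percentile) and -0.258 (quantile) from untreated on the log2 scale.

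Sftpd, the collectin SP-D, read 18524, 25466, 25704, 20125 and 16835 in the early, intermediate, late, sham and untreated pools (M81231_at). The early value lay between both controls, and the intermediate and late values were above them, by 0.34 and 0.35 against sham and by 0.60 and 0.61 against untreated on the log2 scale. With quantile normalization the differences from sham were 0.04 and 0.11. Late over untreated, 1.53-fold, was the widest difference of this probe set.

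Sftpa1, the collectin SP-A, gave different pictures with its 2 probe sets. M33201_at read 33409, 47303, 46214, 37704 and 32178 in those pools. Its early value lay between the controls with median scaling, and below both on the deposited scale or when scaled to the 75th percentile, and its intermediate value was 1.25-fold of sham (reversed with quantile normalization, to a log2 difference of -0.021) and 1.47-fold of untreated. X13176cds_s_at, named after a coding sequence, read 26249, 22318, 26045, 20486 and 14492. Here all 3 exposed arrays were above both controls, the early array was highest, and early over untreated, 1.81-fold, was the widest difference found for any of the 6 probe sets. Against sham it read 1.28-fold on the early and 1.27-fold on the late array, and on the intermediate array 1.09-fold, a direction that reversed with each of the 3 other scalings tried.

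**Figure D2:**
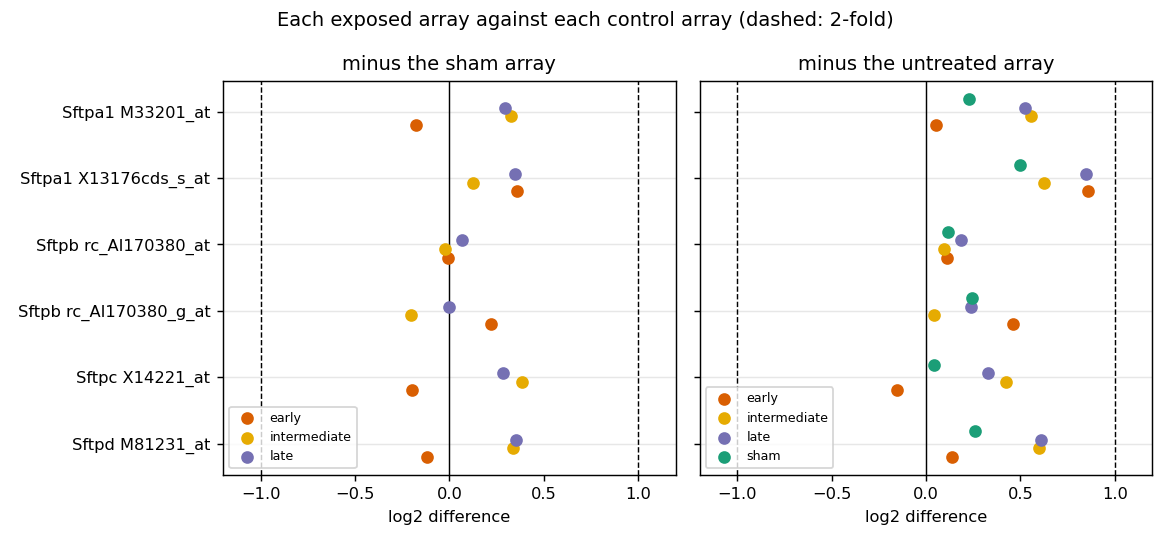
Log2 difference of each exposed array from the sham array (left) and of each exposed and the sham array from the untreated array (right), for the 6 probe sets; dashed lines mark 2-fold. All points lie inside the dashed lines, and on the right the sham points lie above 0 for every probe set.

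By the 2-fold rule against both controls, 0 of 6 probe sets were called on the early array, where 3.17% of 6188 probe sets above the floor were called higher and 0.452% lower. On the intermediate array 0 of 6 were called, against 0.824% higher and 0.339% lower over all, and on the late array 0 of 6, against 0.566% and 0.953%. By any amount, 2 of 6 were above both controls on the early array (35.3% of all tested) and 1 was below both (29.9%), 4 of 6 were above both on the intermediate array (43.8%), and 5 of 6 on the late array (41.2%). These counts depend on the scaling. With quantile normalization 4 of 6 were above both at the early phase, 1 at the intermediate phase and 3 at the late phase, against 30.8%, 32.9% and 34.4% of the same probe sets. On the deposited scale the counts were 2, 3 and 4, against 29.4%, 28.6% and 30.2%. Scaled to the 75th percentile they were also 2, 3 and 4, against 27.3%, 33.1% and 35.5%. Below both controls were 2, 2 and 0 as deposited, against 38.0%, 33.4% and 30.3%. At the 75th percentile 2, 1 and 0 were below both, against 39.7%, 29.3% and 26.2%. With quantile normalization 0, 2 and 2 were below both, against 35.7%, 28.4% and 26.0%. Against the average of sham and untreated, the members' median log2 difference was 0.03, 0.39 and 0.36 by phase. The same medians over all tested probe sets were 0.00, 0.07 and 0.05.

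An error can be given for exposure as a whole, 3 arrays against 2. With limma over 6188 probe sets and Benjamini-Hochberg adjustment, 0 of 6 members passed an adjusted p of 0.05, nor did any probe set of the table (0.0% higher and 0.0% lower), while 428 probe sets (6.92%) had an unadjusted p under 0.05, among them 1 member. That member was X13176cds_s_at of Sftpa1, with a scaled intensity of 24871 ± 2213 (SD, n = 3) on exposed against 17489 ± 4238 (SD, n = 2) on the other arrays. Its log2 difference was 0.53 ± 0.20 (SE), with a limma p of 0.046 before and 0.714 after Benjamini-Hochberg adjustment. It was above both controls on 3 of 3 exposed arrays, as were 13.5% of all tested probe sets.

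For M33201_at of Sftpa1 the limma difference was 0.26 on the log2 scale (95% interval -0.27 to 0.80), for Sftpd 0.32 (-0.21 to 0.85) and for Sftpc 0.18 (-0.37 to 0.73), with limma adjusted p-values of 0.844, 0.844 and 0.882. For Sftpb it was 0.07 (-0.25 to 0.39) by rc_AI170380_at and 0.13 (-0.34 to 0.59) by rc_AI170380_g_at, with 0.911 and 0.896. Hence differences of either sign remain inside the interval of each of these 5 probe sets, and the intervals do not show that exposure left them alike. These p-values measure only the spread between the arrays, in which the differences among phases and between sham and untreated are part of the residual.

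The profiles of the 6 probe sets fell near one another in part. Likeness was taken as the root mean square difference between log2 profiles over the 5 arrays after each was centred on its own mean, so that a small value means a like profile. M33201_at of Sftpa1 and Sftpd were the most alike of 15 pairs, at 0.034, followed by M33201_at and Sftpc at 0.077 and Sftpc and Sftpd at 0.11. The pair of Sftpb probe sets stood at 0.14. The pair of Sftpa1 probe sets stood at 0.28, less alike than M33201_at was to Sftpc, to Sftpd and to rc_AI170380_at of Sftpb (0.20), while rc_AI170380_g_at of Sftpb was farther from it (0.31).

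**Figure D3:**
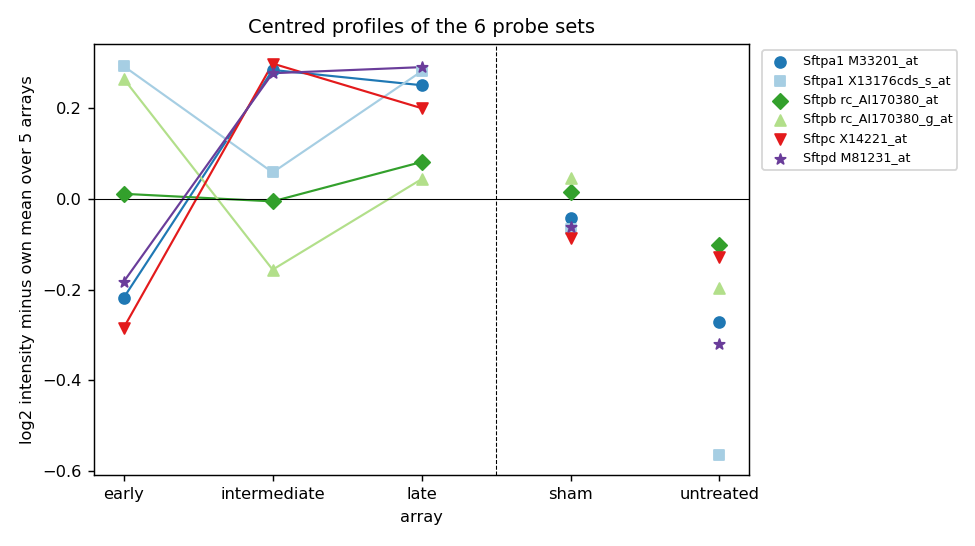
Log2 scaled intensity of each probe set minus its own mean over the 5 arrays, with the 3 exposed phases joined by lines and the 2 control arrays as points. The profiles of Sftpa1 M33201_at, Sftpc and Sftpd are higher at the intermediate than at the early phase, X13176cds_s_at of Sftpa1 and rc_AI170380_g_at of Sftpb are lower there, and rc_AI170380_at of Sftpb stays near 0.

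Comparisons within an array do not depend on the scaling factor. From sham to intermediate, the log2 change of Sftpb (rc_AI170380_at) minus that of Sftpc was -0.40, and minus that of Sftpd it was -0.36. From sham to late the same values were -0.22 and -0.29. From sham to early, the change of Sftpb exceeded that of Sftpc by 0.19. By rc_AI170380_g_at, the difference from the change of Sftpc was 0.42 at the early, -0.58 at the intermediate and -0.29 at the late phase. The change of M33201_at of Sftpa1 lay within 0.06 of that of Sftpd on each exposed array against sham, whereas that of X13176cds_s_at minus that of Sftpd was 0.48, -0.22 and -0.01. These differences rest on 1 array per group and have no error.

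The pattern of M33201_at, Sftpc and Sftpd was shared by other bright signals. Among the 271 other probe sets with a mean scaled intensity of at least 10000, a limit set after the values were seen, the median difference of intermediate from early was 0.38 on the log2 scale (quartiles 0.14 and 0.59), and 84.9% were higher on the intermediate array. For the members the same difference was 0.50 for M33201_at, 0.58 for Sftpc and 0.46 for Sftpd, each between those quartiles. Over all 6188 tested probe sets the median was 0.04. Against sham the other bright probe sets had medians of -0.11, 0.28 and 0.27 at the 3 phases. The upper end of all intensities moved likewise, with a 99th percentile of 20470, 26744, 25873, 21564 and 21913 in the early, intermediate, late, sham and untreated pools. Relative to the other bright probe sets and to sham, Sftpc lay at 0.10 at the intermediate and 0.02 at the late phase, Sftpd at 0.05 and 0.09, and M33201_at at 0.04 and 0.03. On the same footing Sftpb by rc_AI170380_at lay at -0.31 and -0.20, and by rc_AI170380_g_at at -0.49 and -0.27.

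Saline instillation against untreated lung gave another order. The sham value exceeded the untreated value for all 6 probe sets, as it did for 40.3% of all tested probe sets. At least 2-fold higher on sham were 1.66% of the tested probe sets and no member. The log2 differences were 0.50 for X13176cds_s_at and 0.23 for M33201_at of Sftpa1, 0.26 for Sftpd, 0.24 and 0.12 for Sftpb and 0.04 for Sftpc. The members' median was 0.24 and that of all tested probe sets -0.02. The other bright probe sets had a median of 0.00 (quartiles -0.10 and 0.10), so that 5 of the 6 members lay above their upper quartile and Sftpc within the quartiles. There is 1 array on each side, and no test of these differences exists.

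The 2 probe sets of a gene were also set against each other by their changes. Relative to its value on the untreated array, X13176cds_s_at exceeded the change of M33201_at by 0.80, 0.07, 0.32 and 0.27 on the log2 scale in the early, intermediate, late and sham pools. For Sftpb, the change of rc_AI170380_g_at minus that of rc_AI170380_at was 0.35, -0.06, 0.06 and 0.12. Both gaps were widest on the early array. The 5′ over 3′ signal of the control transcripts beta-actin and GAPDH, a measure of RNA and copy integrity, was also highest there. For beta-actin it was 43.1%, 9.07%, 19.6%, 14.7% and 24.4% in the early, intermediate, late, sham and untreated pools, and for GAPDH 67.2%, 23.6%, 38.1%, 25.4% and 39.1%. The untreated array had the second highest ratios of both transcripts and the lowest gap for Sftpa1. The intermediate array had the lowest ratios of both transcripts and the lowest gap for Sftpb. The part of RNA and copy integrity in the probe set differences was not tested.

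**Figure D4:**
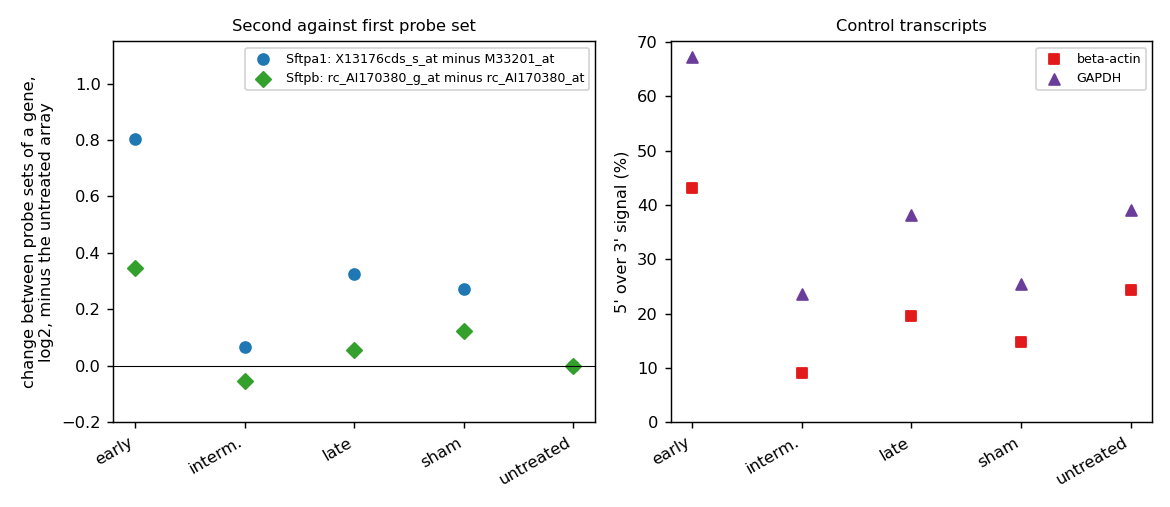
Left, the change of the second probe set of Sftpa1 and of Sftpb minus that of the first, on the log2 scale relative to the untreated array; right, the 5′ over 3′ signal of beta-actin and GAPDH in percent, each for the 5 arrays. The early array is highest in all 4 series, and the untreated array, second in the ratios, is at 0 on the left by construction.

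For each gene's main probe set, the 3 of 2779 other named genes with the most alike profile over the 5 arrays were looked up. Nearest to Sftpa1 were the sterol synthesis enzyme Mvd (0.035), the calcium channel subunit Cacna1a (0.047) and lysozyme, Lyz2 (0.054), which type 2 cells and macrophages make. Lyz2 read 44778, 65142, 64169, 52966 and 48269 on the early, intermediate, late, sham and untreated arrays. Nearest to Sftpc were the ribosomal protein gene Rpl21 (0.027), the proteasome subunit Psmb5 (0.027) and Itih4 (0.029), and nearest to Sftpd were Cacna1a (0.042), the dehydrogenase Idh1 (0.052) and Mvd (0.058). Sftpb was nearest to Cdc42ep3 (0.030), Stard3 (0.035) and Cyp2b15 (0.036), all within a narrow range over the arrays.

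Markers of the labelled tissue were present. Beside the surfactant proteins, 4 other type 2 markers were on the array and all 4 were above the floor on every array. None was called at any phase, and their median log2 difference from the average of both controls was 0.06, 0.46 and 0.71 by phase. Over the 3667 genes tested with 1 probe set each, it was -0.01, 0.09 and 0.07. The 271 other bright probe sets, Lyz2 and Muc1 among them, had medians of -0.11, 0.28 and 0.27 against sham. Against untreated their medians were -0.14, 0.29 and 0.27. Mucin 1, Muc1, read 9391, 13550, 14508, 8813 and 7366 in the early, intermediate, late, sham and untreated pools, and was above both controls on all 3 exposed arrays with median scaling, though its early value was below sham on the deposited scale (a log2 difference of -0.03) and when scaled to the 75th percentile (-0.09). Cathepsin H, Ctsh, a lysosomal protease that takes part in SP-B and SP-C processing, read 10531, 10884, 11478, 8539 and 6922 in that order, with no overlap under any of the 4 scalings. With median scaling, 13.5% of all tested probe sets were above both controls on all 3 exposed arrays. Lyz2 and Nkx2-1 overlapped the controls at the early phase. There Lyz2 was below both controls, at -0.24 from sham and -0.11 from untreated on the log2 scale, and Nkx2-1 lay between them.

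Regulators of the surfactant protein genes were listed without regard to direction. Of 25 listed, 22 were on the array and 17 above the floor on some array, and 3 of the 17 were higher on the early array, with none lower and none called later. With the floor at the 60th percentile 1 was called on the early array, and with the floor at the 20th percentile 4 were called there and 1 at each later phase. Over the 3667 genes, 2.54% and 0.3% were called higher and lower at the early phase, 0.873% and 0.218% at the intermediate phase and 0.6% and 1.04% at the late phase. The C/EBP factor Cebpd read 5250 on the early array against 2030 for sham and 965 for untreated, while its other probe sets read 281 against 433 and 270, and 2187 against 394 and 262. The oxygen-regulated transcription factor Hif1a read 735 against 289 and 338, and Stat3, a mediator of cytokine signals, read 370 against a value under the floor and 176, with a second probe set at 186 against 2 values under the floor. Median differences of the list were 0.29, 0.05 and 0.22 by phase.

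Nkx2-1 itself, named here after its values were seen, read 4181, 5998, 8469, 4050 and 4925 in the early, intermediate, late, sham and untreated pools. Its late value was the highest, 1.06 over sham and 0.78 over untreated on the log2 scale, so it did not pass against both, and limma's adjusted p for exposure was 0.845. Foxa1, the other regulator with a core searched above, lay under the floor on every array, and Foxa2 was not called.

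Genes of surfactant lipid synthesis, transport and protein processing had 17 of 27 listed members measured. P2ry2, the purinergic receptor through which ATP triggers surfactant secretion, was the 1 called with median scaling, higher on the early and intermediate arrays. Its intermediate call was lost on the deposited scale and when scaled to the 75th percentile. It read 2221, 1779, 1446, 841 and 744 in those pools, with no overlap between exposed and other arrays, and limma gave a difference of 1.18 with an adjusted p of 0.610. None of the 17 was lower by the rule with median scaling, and their medians were -0.13, 0.06 and 0.08. Scd, named here after its values were seen, read 5296, 3930, 3784, 7288 and 11588 in those pools. Its late value lay -0.95 from sham and -1.61 from untreated on the log2 scale, and its limma adjusted p was 0.611. On the deposited scale and when scaled to the 75th percentile, Scd was called lower on the intermediate and late arrays. The lamellar body transporter Abca3, Lamp3 and Napsa had no probe set annotated to them alone, so no values are given for them.

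Among partners in clearance and binding, 7 of 17 listed genes were measured and 1 was called, the endotoxin co-receptor Cd14, which SP-A binds; none was called with any of the 3 other scalings. Cd14 read 1455 on the early array against 681 and 600, and a second probe set 722 against 415 and 364, short of 2-fold. The other lectins were dim. The serum collectin Mbl1 read between 196 on the untreated and 310 on the intermediate array by 1 probe set and lay under the floor by another, and Asgr1 and Asgr2 had values under the floor on several arrays.

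**Figure D5:**
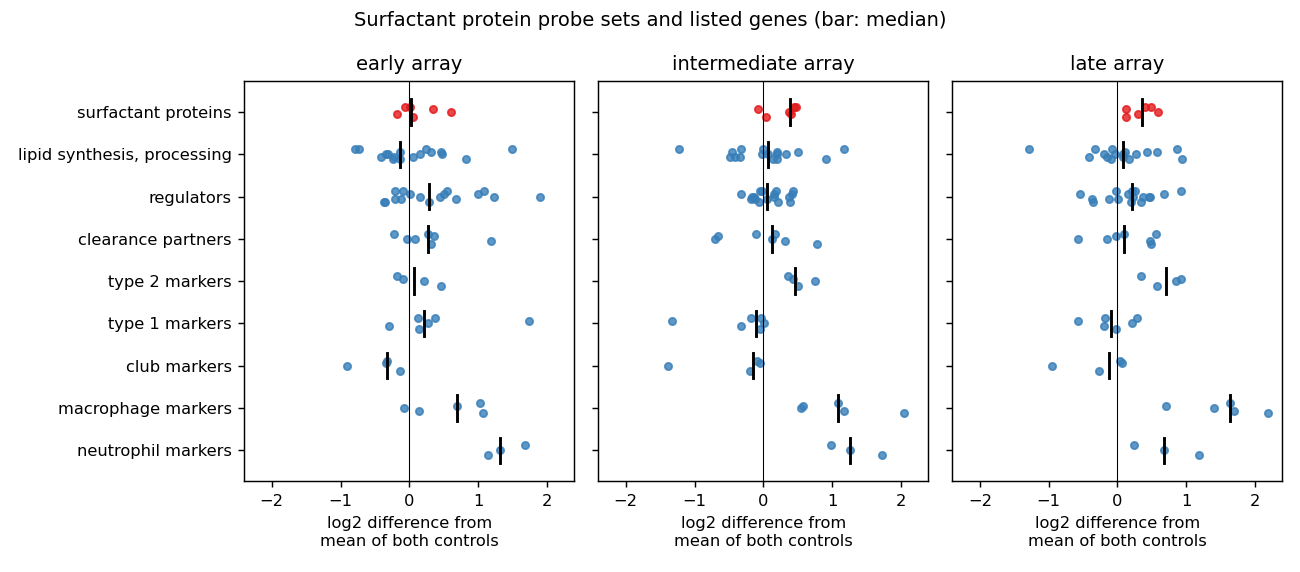
Log2 difference of each exposed array from the mean of both control arrays for the 6 surfactant protein probe sets (red) and for the genes of 8 lists (blue, 1 point per gene), with black bars at the medians. The surfactant protein points lie between -0.18 and 0.61 on all 3 arrays, and the macrophage and neutrophil markers have higher medians than they do at each phase.

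Markers of other lung cells differed between the arrays alongside these values. Of 5 macrophage markers measured, 4 were higher on the late array (Mmp12, Fcgr2b, Spp1 and Ctsk), against 0.6% of the 3667 genes. On the early (0 with each of the 3 other scalings) and intermediate arrays 1 each was higher, against 2.54% and 0.873%. With the floor at the 60th percentile 2 were called late and 0 at the earlier phases. Mmp12 lay under the floor on sham and read 190 on untreated, and Ctsk read 216 on sham. The summed level of the list was 12654 to 15314 on the exposed and 7396 to 8591 on the other arrays. Most of that sum was Lgals3, which was not called, and without it, a sum taken after the values were seen, the list came to 2174 to 4747 on the exposed and 1362 to 1550 on the other arrays. Of 3 neutrophil markers measured, the early phase had 3 called higher, the intermediate phase 2 and the late phase 1 (S100a8, S100a9 and Padi4; with the 3 other scalings the early count was 1 or 2 and the intermediate count 1), with summed levels of 3617 to 5928 against 1977 to 2567, and Cxcr2 under the floor throughout. Type 1 cell markers summed to 40184 to 49468 on exposed and 40796 to 42874 on the other arrays, and 1 of 6, Cav1, was higher on the early and lower on the intermediate array. Club cell markers, 4 measured and none called, summed to 39107 to 48817 on exposed and 45352 to 53101 on the other arrays. The secretoglobin Scgb1a1, which defines club cells, read 19738 on the early and 25506 on the untreated array at its extremes, Aldh1a1 ranged from 14352 (early) to 19846 (untreated) and Cyp4b1 from 3805 (late) to 5106 (untreated). Cyp2f4, named after its values were seen, read 842, 605, 818, 940 and 2643 in the early, intermediate, late, sham and untreated pools. It was not called because it stayed within 2-fold of sham. Of 5 endothelial markers Edn1 was higher on the early array (not called with 75th percentile scaling or the floor at the 60th percentile), with sums of 7368 to 10283 against 7830 to 8248, and the 1 ciliated cell marker measured, Foxj1, was not called. The part of these cell types in the surfactant protein values was not tested.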

How the data were processed

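RNA of whole rat lung was measured on 5 arrays, 1 per group. The authors deposited 1 linear intensity per probe set and array, scaled between arrays as read from the values; the software was not stated in the sources used here. From 8799 probe sets, 59 controls were left out (used for 5′ over 3′ ratios alone). The platform annotation named 7006 probe sets with 1 gene and 308 with several, and 1426 were not listed. Values were scaled to a common median, floored at the 40th percentile (172.53) and taken to log2. A call by fold needs at least 2-fold against both sham and untreated; exposure (3 against 2 arrays) was tested with limma 3.58.1 in R 4.3.3 over 6188 probe sets above the floor on any array, steps tested on simulated data. A listed gene is represented by its brightest probe set on average. All member probe sets are named; of each list, up to 4 called genes with the largest differences or, with none called, the 3 brightest; others are marked. Members, lists and rules were chosen with earlier results of these data known. Alternatives were other scalings (values as deposited, 75th percentile, quantile), floors (20th and 60th percentile), probe set choices, fold sizes, controls and leaving out arrays. The number of arrays limits the precision.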

Additional observations from a re-analysis of the deposited data

Results flagged for a closer look

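With median scaling, Sftpc (X14221_at) was below both control arrays on the early array and above both on the later ones. The log2 differences were -0.20 from sham and -0.16 from untreated on the early array, 0.38 and 0.43 on the intermediate array, and 0.29 and 0.33 on the late array. With quantile normalization the early value was 0.04 above sham and 0.09 above untreated on that scale. Intermediate then lay -0.03 and late 0 from sham. The difference between phases was not tested, since each phase has 1 array, and other bright probe sets shifted in the same directions with median scaling.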

How the results depend on the processing

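No member probe set passed the 2-fold rule or limma under any alternative tried (36 counts, each 0, which says little about stability where so few could pass). Of 70 limma differences recomputed for single probe sets, 4 reversed: rc_AI170380_at of Sftpb gave -0.053 with the deposited scale, -0.029 when scaled to the 75th percentile and -0.081 with quantile normalization, and rc_AI170380_g_at gave -0.0049 with quantile normalization. The cause was not tested. Leaving out each array in turn, with a lone control assumed to vary like the exposed arrays, gave 0.06 (without intermediate) to 0.36 (without early) for Sftpc, 0.15 (without untreated) to 0.42 (without early) for M33201_at, 0.28 (without untreated) to 0.78 (without sham) for X13176cds_s_at and 0.19 (without untreated) to 0.48 (without early) for Sftpd. For Sftpb it gave 0.01 (without untreated) to 0.13 (without sham) by rc_AI170380_at and 0.0050 (without untreated) to 0.25 (without sham) by rc_AI170380_g_at, and the limma adjusted p of all members ran from 0.521 to 1.0 over the alternatives. Of 360 member differences between 2 arrays, 82 moved by more than the residual SD. Quantile normalization turned every Sftpc difference to the opposite sign or to 0 except those from untreated on the later arrays and of sham from untreated, because it fixes the values of the brightest ranks. Centring on other bright probe sets, chosen after seeing the data, gave the Sftpa1 probe set X13176cds_s_at -0.16 for intermediate minus sham. Of 165 list counts, 23 moved by over 1.5 times, among them the lipid list, which gained 1 on the late array with each of the 3 other scalings, and the regulators, with 1 in place of 3 on the early array at the higher floor. No paired analysis was possible because the labels give no replicate numbers and each group has 1 array.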
